A study of Mus musculus with 12 samples.

Results

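Sox10, Ngfr, Erbb3, Foxd3, S100b, Cdh19, Fabp7 and Nes are genes by which Schwann cells, and the neural crest cells they descend from, are commonly recognised. They were taken as a list of mouse symbols and matched to the Ensembl identifiers of the count files, where all 8 were found. All 8 passed the filter on low counts, with at least 51 reads in every sample, and were among the 15327 genes tested. The neural crest is a cell population that leaves the dorsal edge of the developing neural tube and gives rise to Schwann cells, the glia of peripheral nerves, as well as to melanocytes, peripheral neurons and part of the connective tissue of the head. In this lineage the transcription factor SOX10 is needed for glial identity, and neuregulin on axons signals through ERBB3 to keep Schwann cell precursors alive and dividing. Peripheral nerves run through the embryonic tissue from which fibroblasts are grown.

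The study asked how gene expression differs in cells whose E2F1, a transcription factor of the cell cycle and the DNA damage response, cannot be acetylated. RNA-seq was performed on primary mouse embryonic fibroblasts (MEFs) of the FVB strain at passage 3, grown from embryos aged 13.5 days, with 3 samples in each of 4 groups. The groups were wild-type MEFs left untreated, wild-type MEFs treated with neocarzinostatin (NCS, a drug that breaks DNA as ionizing radiation does) at 250 ng/ml for 3 h, untreated MEFs of homozygous E2f1 3KR/3KR knock-in mice, and 3KR MEFs given the same NCS treatment. In the 3KR allele the acetylated lysines of E2F1 are replaced by arginines. The allele was made with a zinc finger nuclease and a donor construct. Embryos came from crosses of heterozygous or homozygous mice, and the methods describe wild-type FVB mice as bought and knock-in mice as bred in house. Whether the wild-type and 3KR embryos were littermates, and whether each replicate number stands for its own embryo, is not given in the sources used here. The caption of the figure with these RNA-seq data describes its graphs as means of 3 independent experiments on cells or mice. The p-values measure the spread between these samples.

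The libraries held 33203757 to 45279321 counted reads each. Genes that report on genotype, treatment and sex were read first. E2f1 had 1042 to 1296 normalized counts (on the scale of DESeq2's size factors) in untreated wild-type and 1111 to 1128 in untreated 3KR samples. The 3KR allele changes codons and not necessarily the amount of RNA, so this level does not check the genotype labels. Cdkn1a, a p53 target raised by DNA damage, had 17068 to 18008 normalized counts in untreated and 38956 to 39930 in NCS-treated wild-type MEFs, and 9734 to 9882 and 24533 to 25139 in 3KR MEFs. Every NCS-treated sample was therefore above every untreated sample of its genotype. The related target Mdm2 had log2 fold changes after NCS of 0.84 in wild-type and 0.96 in 3KR MEFs.

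Xist, which silences 1 X chromosome in females, was near absent from all 6 wild-type libraries (at most 62.5 normalized counts) and abundant in all 6 of 3KR (at least 30590.1). The Y-linked genes Ddx3y, Kdm5d, Eif2s3y and Uty went the other way, with at most 16.2 normalized counts of Ddx3y in any 3KR library and at least 5370.3 in every wild-type library. Sex and genotype therefore cannot be told apart in any comparison of 3KR with wild-type MEFs. Within the wild-type groups, replicate 3 stood apart from its fellows. The mean chi-square per gene between samples was 9.40 and 9.29 for the pairs with replicate 3 in untreated wild-type MEFs, against 2.26 for replicates 1 and 2. After NCS it was 7.59 and 8.14 against 2.25. In the 3KR groups no pair exceeded 2.33. With both wild-type samples numbered 3 left out, the log2 fold changes of 3KR against wild-type in untreated MEFs were -2.36 for Sox10, -2.39 for Foxd3, -2.13 for Ngfr, -2.16 for Erbb3, -2.28 for Cdh19, -1.91 for Fabp7, -1.44 for Nes and -0.15 for S100b. The values with all samples follow gene by gene.

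The label of the cells was checked against markers of fibroblasts. All 10 fibroblast markers listed were tested. Col1a1 was the most abundant per length, at 2440 to 3198 RPKM (counts scaled to exon length and library size), and the markers summed to 54633 to 61469 CPM (counts scaled to library size) in the 12 samples. Of these 10, 9 were higher and 1, Fn1, was lower in untreated 3KR MEFs. Pdgfra, a growth factor receptor of mesenchymal cells, had a log2 fold change of 1.67, and the matrix proteoglycans Lum and Dcn had 1.34 and 0.75. For Fn1 it was -0.35. Per length, Nes had 118.9 to 132.4 RPKM and Sox10 11.8 to 12.6 RPKM in untreated wild-type MEFs.

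In both treatments, 7 of the 8 genes were lower in 3KR than in wild-type MEFs and none was higher. S100b was the exception. In untreated MEFs, 45.7% of all tested genes passed the edgeR adjusted p of 0.05, 23.6% as lower and 22.1% as higher in 3KR. After NCS these shares were 46.5%, 23.6% and 22.9%. The median log2 fold change of the 8 genes was -2.19 without treatment and -2.29 after NCS, against 0.00 for all tested genes in both comparisons. In the 7 genes, every 3KR sample had fewer normalized counts than every wild-type sample of the same treatment. Of all tested genes, 53.5% were without overlap, in either direction, in untreated MEFs and 54.3% after NCS. In bulk samples, fewer cells of a type and less RNA per cell cannot be told apart.

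**Figure D1:**
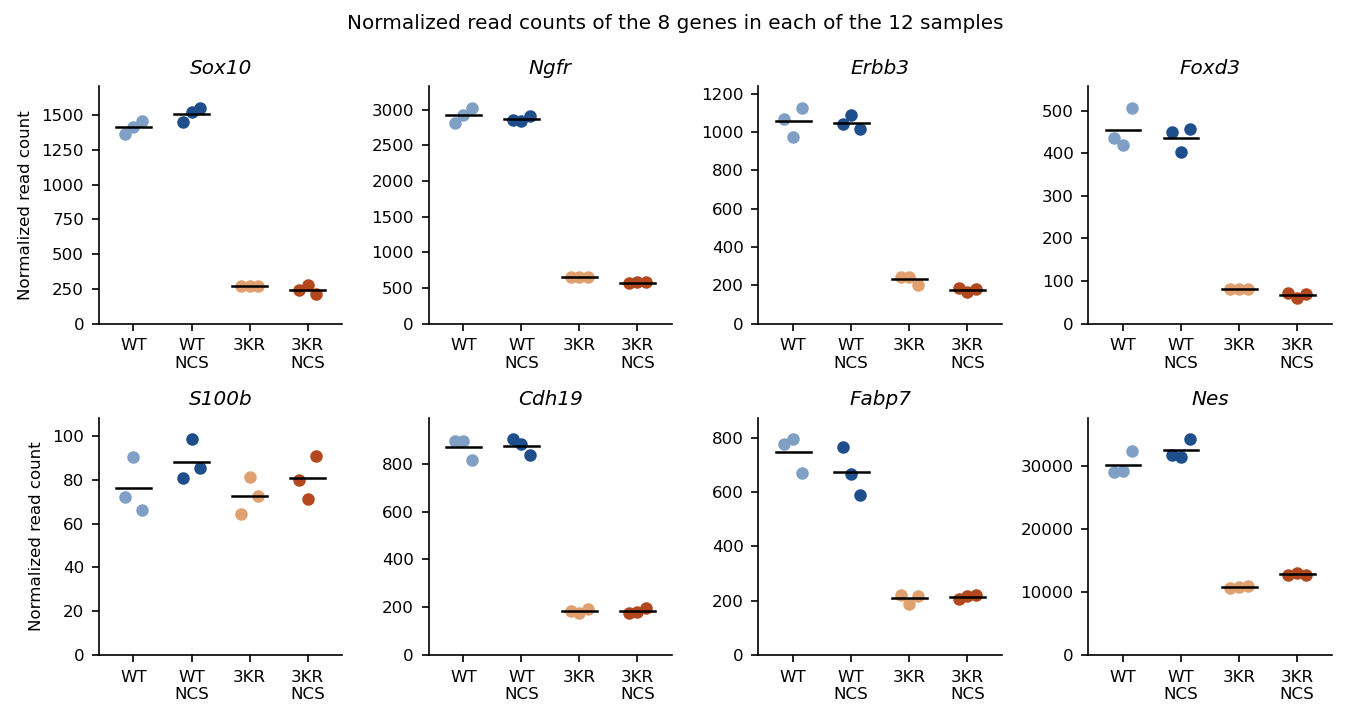
Normalized read counts (vertical axes, scaled by DESeq2) of the 8 genes in each of 4 groups, with 1 point per sample and a line at the mean of 3 samples. In all panels but that of S100b, the 6 points of 3KR MEFs lie below the 6 of wild-type MEFs, as for Sox10, where the 3KR points reach at most 274.

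Sox10 (ENSMUSG00000033006, chromosome 15, 79154908 to 79165240, minus strand) encodes the SOXE transcription factor that marks crest cells and glia throughout their development. Its normalized counts were 1369, 1413 and 1462 in untreated wild-type MEFs and 269, 268 and 274 in their 3KR counterparts. With NCS the values were 1452, 1526 and 1556 in wild-type and 245, 274 and 215 in 3KR MEFs. The lowest wild-type sample was thus several times the highest 3KR sample, with no overlap in either treatment. The difference was 5.25-fold without treatment (log2 fold change -2.39, standard error 0.07, edgeR adjusted p = 5.4e-19) and 6.19-fold after NCS (log2 fold change -2.63, standard error 0.07, edgeR adjusted p = 1.87e-19). NCS itself gave 0.09 on the log2 scale in wild-type (edgeR adjusted p = 0.227) and -0.15 in 3KR MEFs (edgeR adjusted p = 0.194), and untreated and NCS-treated samples overlapped in each genotype.

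Foxd3 (ENSMUSG00000067261, chromosome 4, 99656299 to 99658622, plus strand) encodes a forkhead factor of early crest cells. It had 435, 420 and 507 normalized counts in untreated wild-type and 81.6, 82.2 and 80.0 in untreated 3KR MEFs. In the NCS-treated groups the values were 449, 402 and 457 in wild-type and 70.9, 59.5 and 70.3 in 3KR MEFs. The groups of the genotypes did not overlap in either treatment. The log2 fold change was -2.48 without treatment (standard error 0.11, edgeR adjusted p = 3.66e-15) and -2.69 after NCS (standard error 0.11, edgeR adjusted p = 2.92e-15). In each treatment the value of Sox10 lay within 1 standard error of Foxd3 from it, and the difference between the 2 genes was not tested. NCS gave -0.06 in wild-type and -0.27 in 3KR MEFs, with edgeR adjusted p-values of 0.658 and 0.172. A microRNA gene, Gm23366, overlaps 89 bases (3.83%) of the Foxd3 exons on the same strand, and how reads there were counted is not given in the sources used here.

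The 2 receptors among the genes were both lower in 3KR MEFs, and the difference between them was not tested. Ngfr (ENSMUSG00000000120, chromosome 11, 95568818 to 95587735, minus strand) encodes p75, the receptor that binds all neurotrophins. In untreated MEFs its normalized counts were 2811, 2933 and 3030.3 in wild-type and 647, 656 and 659 in 3KR. After NCS they were 2859, 2842 and 2915 in wild-type and 570.1, 578 and 577 in 3KR. The groups were narrow, since the standard deviation was at most 3.76% of the mean. The log2 fold changes of 3KR against wild-type were -2.17 untreated (standard error 0.04, edgeR adjusted p = 1.66e-21) and -2.32 after NCS (standard error 0.04, edgeR adjusted p = 1.01e-21).

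Erbb3 (ENSMUSG00000018166, chromosome 10, 128567523 to 128589652, minus strand) encodes the neuregulin receptor that works as a partner of ERBB2. It had 1068, 973 and 1128 normalized counts in untreated wild-type MEFs and 244, 243 and 203 in untreated 3KR MEFs. With NCS, the wild-type samples had 1044, 1090 (1089.7) and 1016 and the 3KR samples 184, 165 and 182. Neither treatment showed overlap between genotypes, and the untreated 3KR samples lay above the NCS-treated ones. The genotype difference was -2.21 on the log2 scale without treatment (standard error 0.08, edgeR adjusted p = 5.08e-17) and -2.57 after NCS (standard error 0.08, edgeR adjusted p = 1.13e-17).

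Cdh19 (ENSMUSG00000047216, chromosome 1, 110888326 to 110977584, minus strand) encodes a cadherin, a cell adhesion protein, of Schwann cell precursors. Its normalized counts were 898, 897 and 816 in untreated wild-type and 184, 178 and 192 in untreated 3KR MEFs. After NCS, 904, 885 and 836 were found in wild-type and 175, 179.7 and 195 in 3KR MEFs. The highest 3KR value was far below the lowest wild-type value in both treatments. The log2 fold changes were -2.24 and -2.25 (standard errors 0.07, edgeR adjusted p = 1.44e-17 and 2.16e-17). NCS gave log2 fold changes of 0.00 in wild-type and -0.01 in 3KR MEFs.

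Fabp7 (ENSMUSG00000019874, chromosome 10, 57784881 to 57788450, plus strand) encodes a fatty acid binding protein of glial precursors. It had 778, 795 and 669.6 normalized counts in untreated wild-type and 222, 187 and 217 in untreated 3KR MEFs. After NCS the values were 766, 668 and 591 in wild-type and 205, 217 and 221 in 3KR MEFs. In both wild-type groups, the lowest value came from replicate 3. The genotype difference was smaller than that of the genes above, with -1.85 untreated (standard error 0.10, edgeR adjusted p = 1.22e-13) and -1.66 after NCS (standard error 0.10, edgeR adjusted p = 1.67e-12).

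Nes (ENSMUSG00000004891, chromosome 3, 87971078 to 87980451, plus strand) encodes nestin, an intermediate filament protein of progenitor cells that fibroblasts in culture and cells of blood vessel walls can also make. Its normalized counts were 29064, 29234 and 32338 in untreated wild-type MEFs and 10587, 10752 and 10928 in those of 3KR. With NCS the values were 31769, 31410 (31409.8) and 34273 in wild-type and 12749, 12951 and 12777 in 3KR MEFs. The genotypes did not overlap, though the 3KR mean was still 35.6% of the wild-type mean without treatment. The log2 fold change was -1.50 without treatment (standard error 0.04, edgeR adjusted p = 1.09e-19) and -1.34 after NCS (standard error 0.04, edgeR adjusted p = 9.13e-19). Of the 7 genes lowered in 3KR, Nes had the smallest change and the highest level per length.

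S100b (ENSMUSG00000033208, chromosome 10, 76253853 to 76261159, plus strand) encodes a calcium binding protein of glia that is also made by cartilage and fat cells. It had 72.1, 90.3 and 66.2 normalized counts in untreated wild-type and 64.5, 81.1 and 72.7 in untreated 3KR MEFs. After NCS it had 81.0, 98.6 and 85.6 in wild-type and 80.0, 71.2 and 91.0 in 3KR MEFs. The genotypes overlapped in both treatments. The log2 fold change was -0.07 untreated (95% interval -0.42 to 0.28, edgeR adjusted p = 0.772) and -0.13 after NCS (95% interval -0.47 to 0.21, edgeR adjusted p = 0.555). These intervals lie above those of the other 7 genes, of which the highest upper bounds were -1.42 untreated and -1.26 after NCS, both for Nes. The difference between genes was not itself tested. The sign of the untreated value turned to 0.06 without replicate 2 of the wild-type samples and to 0.01 without replicate 1 of the 3KR samples.

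**Figure D2:**
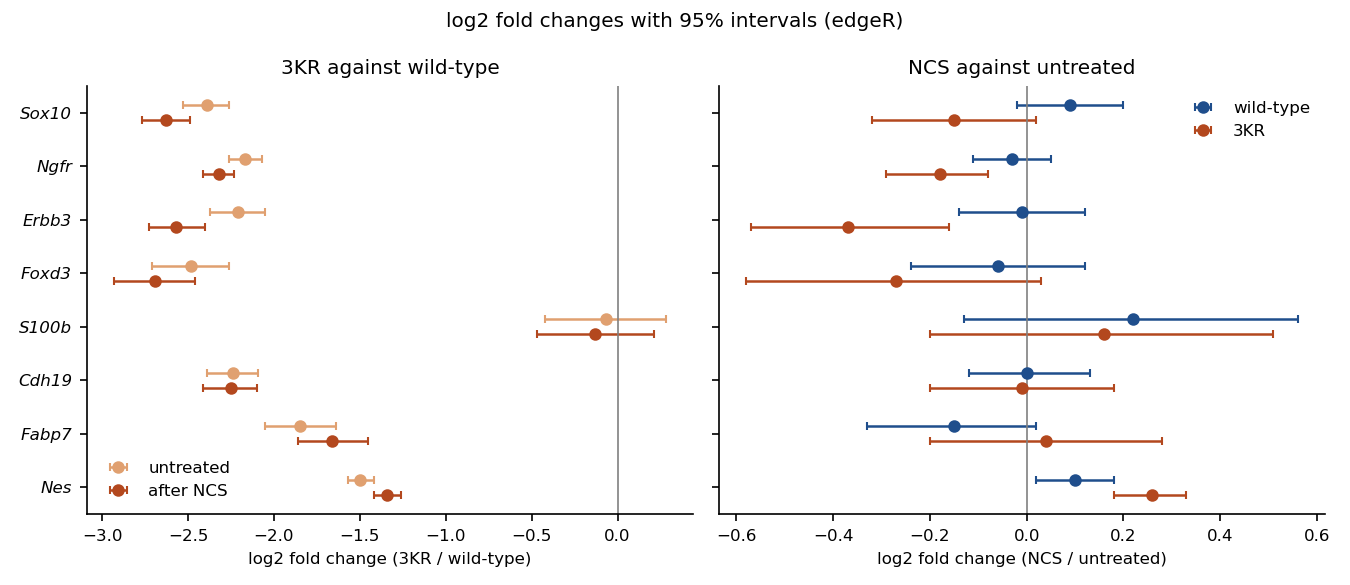
log2 fold changes (horizontal axes) of the 8 genes with their 95% intervals from edgeR, for 3KR against wild-type on the left and for NCS against untreated on the right, 3 samples per group. The left panel spans a wider range than the right, with values from -2.69 for Foxd3 to -0.07 for S100b.

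Levels were compared between genes per length of exon. In untreated wild-type MEFs the order of mean RPKM was Nes (123.6), Ngfr (22.3), Fabp7 (15.7), Sox10 (12.2), Cdh19 (5.34), Foxd3 (5.13), Erbb3 (4.61) and S100b (1.35). Cdh19, Foxd3 and Erbb3 overlapped with their neighbours in this order, and the others did not. In untreated 3KR MEFs, S100b (1.28 RPKM) stood above Cdh19 (1.13), Erbb3 (0.9996) and Foxd3 (0.914). There S100b overlapped with Cdh19, and Erbb3 with Foxd3. After NCS the order in wild-type MEFs was the same, with Fabp7 (14.1 RPKM) now overlapping Sox10 (12.97 RPKM). In NCS-treated 3KR MEFs, Fabp7 (4.49 RPKM) came before Ngfr (4.37 RPKM), and these 2 overlapped.

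The proportions among the genes were also followed within samples. The RPKM of Foxd3 per RPKM of Sox10 was 0.390 to 0.455 in untreated wild-type and 0.384 to 0.402 in untreated 3KR MEFs, and the ranges overlapped. For Erbb3 it was 0.349 to 0.395 in wild-type and 0.376 to 0.460 in 3KR, again with overlap. The mean ratio of Cdh19 was 0.439 in wild-type and 0.487 in 3KR, and its ranges did not overlap (at most 0.467 in wild-type, at least 0.472 in 3KR). For Ngfr the ratio was 1.82 to 1.84 and 2.13 to 2.17, and for Fabp7 1.12 to 1.39 and 1.70 to 2.01. It differed most for Nes, 9.84 to 10.5 and 18.7 to 19.1, and for S100b, 0.0931 to 0.131 and 0.493 to 0.622. These ratios were not tested.

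In the 7 genes that were lower in 3KR MEFs, NCS for 3 h gave smaller differences than the genotype did. S100b, not called in any comparison, had 0.22 with NCS in wild-type and 0.16 in 3KR MEFs. In wild-type MEFs 1 of the 8, Nes, was higher and none was lower, where 14.3% of all tested genes were called higher and 12.4% lower. The value for Nes was 0.10 on the log2 scale (edgeR adjusted p = 0.0451), and the untreated and treated samples overlapped. Paired by number, all 3 NCS-treated wild-type samples were above their untreated partners for Nes, Sox10 and S100b, and below them for Fabp7. Nes missed the threshold in 13 of 20 alternatives, among them scaling by library totals (0.05, edgeR adjusted p = 0.282). The replicate block was not among these 13. Over all 20 the adjusted p (edgeR or DESeq2) lay between 1.71e-06 and 0.282. Leaving out any 1 sample but wild-type untreated replicate 3 or wild-type NCS replicate 2 was enough, and without wild-type NCS replicate 3 the value was 0.06. In 3KR MEFs, Nes was higher by 0.26 (standard error 0.04, edgeR adjusted p = 1.12e-05). Ngfr was lower by 0.18 (log2 fold change -0.18, edgeR adjusted p = 0.00748), and Erbb3 had a log2 fold change of -0.37 (edgeR adjusted p = 0.00634). Among all tested genes, 15.8% were higher and 15.0% lower with NCS in 3KR MEFs. In each of these 3 genes, every NCS-treated 3KR sample lay on one side of every untreated 3KR sample. That was also so for Foxd3, which was not called, and for 47.6% of all tested genes. In wild-type MEFs Fabp7 had -0.15 (edgeR adjusted p = 0.19), and it passed only without replicate 3 of the untreated samples (-0.22) or replicate 1 of the treated ones (-0.25).

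None of the 8 genes passed the edgeR or the DESeq2 test of the difference between the NCS responses of the genotypes, for which 3.73% of all tested genes were called. At an unadjusted edgeR p under 0.05, which 16.3% of all tested genes had, were 4 of the 8, none of which passed after adjustment. These were Sox10 (-0.24), Ngfr (-0.16), Erbb3 (-0.36) and Nes (0.16), with edgeR adjusted p-values of 0.217, 0.212, 0.104 and 0.112. With the replicate block, which pairs the samples by number, Nes had a difference of 0.15 and an edgeR adjusted p of 0.000496, and the count of genes called over the whole table rose from 572 to 1379. Same-numbered untreated and NCS-treated samples deviated together in wild-type MEFs (correlations 0.141, 0.136 and 0.325). In 3KR MEFs they did not (-0.0091, 0.00644 and -0.091). Replicate 3 stood apart in both wild-type groups, and deviations from a group mean cancel out. A shift shared by the wild-type samples numbered 3 would therefore raise the correlations of the other numbers too. Differently numbered samples were not compared, so pairing of the other numbers is not shown. Without both wild-type samples numbered 3, Erbb3 (-0.43, edgeR adjusted p = 0.00896) and Nes (0.14, edgeR adjusted p = 2.67e-05) passed. Without a filter on low counts Nes passed too (0.15, edgeR adjusted p = 0.0174). Leaving out 1 sample was also enough, replicate 3 of the untreated wild-type MEFs for Erbb3 (-0.40) and of the NCS-treated ones for Nes (0.19). Over all alternatives the adjusted p (edgeR or DESeq2) lay between 0.00896 and 0.26 for Erbb3 and between 2.67e-05 and 0.259 for Nes. The comparisons of NCS and of genotype share their groups, so their values are given side by side and no agreement between them is drawn.

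**Figure D3:**
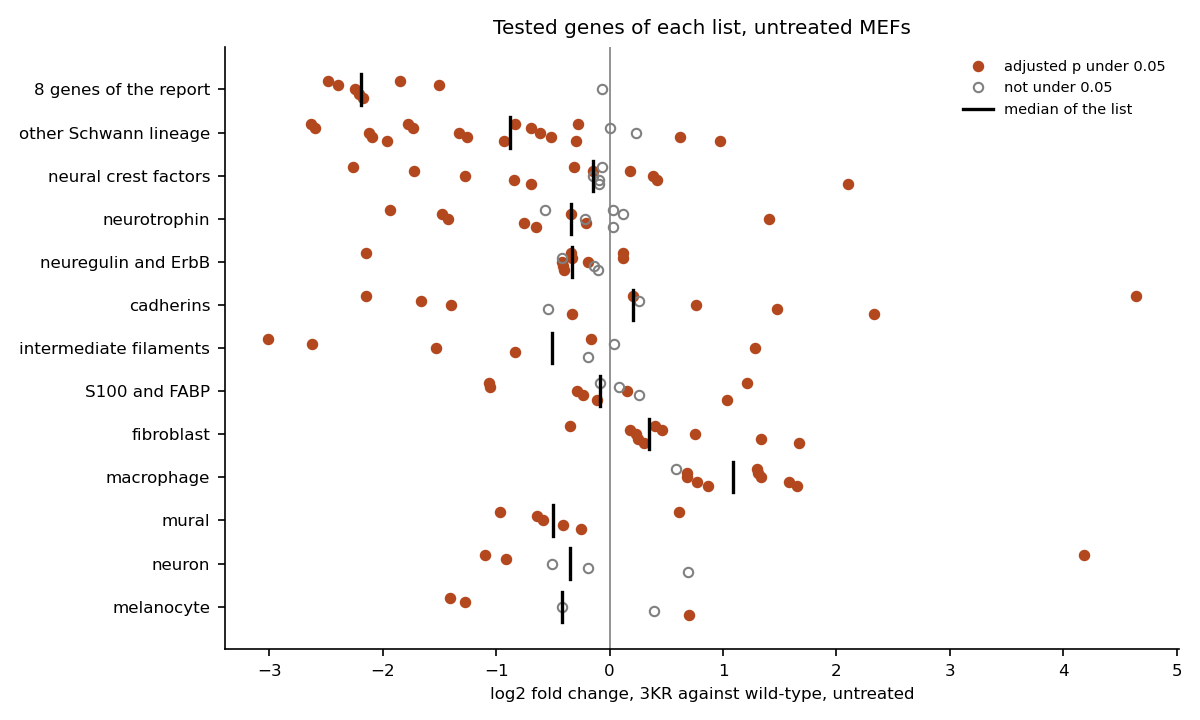
log2 fold changes of 3KR against wild-type in untreated MEFs (horizontal axis) for each tested gene of the lists named on the left, with filled points for an edgeR adjusted p under 0.05, open points for the rest and a bar at the median of the list. The 8 genes have a median of -2.19 and the other Schwann lineage genes one of -0.88.

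Other genes of the Schwann lineage were followed from a list of 25, all found in the files, of which 20 were tested. Of these, 16 were lower and 2 higher in 3KR without treatment, and 16 and 3 after NCS, with medians of -0.88 and -1.03. The adhesion molecules Cadm4 and L1cam had -1.73 and -1.96. Nfatc4, a calcineurin-dependent factor, was higher, at 0.97, as was Pmp22 at 0.62, a myelin gene that fibroblasts also express. Several genes of the myelinating stage were near 0 in every sample. Pou3f1 and Gjb1 had 0 reads, Fa2h and Ugt8a at most 3, and Mag at most 5. Pmp22 was the most abundant of the list, at 24.5 to 40.6 RPKM, and the list summed to 701.5 to 743.8 CPM in wild-type and 564 to 577 CPM in 3KR samples.

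Transcription factors of the neural plate border and crest were mixed. Of 17 listed, 15 were tested, 7 were lower and 4 higher in 3KR without treatment (median -0.15), and after NCS also 7 and 4, where Zeb2 (-0.10) was not called with library totals. Zic1 had a log2 fold change of -1.72 and Msx2 of -1.27, while Msx1 had 2.10 and Snai2, a factor of crest delamination, 0.42 (edgeR adjusted p = 1.19e-17, 7.51e-14, 1.47e-16 and 5.72e-10). Snai1 was the most abundant per length at 89.2 to 163 RPKM.

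The ligands and partners of the 2 receptors were taken from lists of 14 genes each. In the neurotrophin list, where Ngfrap1 was also entered as an older symbol of Bex3, all 14 were found, 13 were tested, and 7 were lower and 1 higher in 3KR MEFs in each treatment. Bdnf, a neurotrophin, had a log2 fold change of -1.42 without treatment (edgeR adjusted p = 8.63e-18). The sortilin family receptors Sort1 and Sorcs2 had -0.75 and 1.41. Maged1 was most abundant, at 171 to 181 RPKM. In the list of neuregulin and ErbB genes, 12 were tested, 7 were lower and 2 higher without treatment, and 9 were lower after NCS, of which Nrg1 and Erbb4 were not called with library totals. The 4 with the lowest p had -0.41 (Egfr), -0.40 (Pik3r1), -0.42 (Lrig1) and -0.34 (Rnf41). The largest change of the list was that of the scarce Erbb4, a further neuregulin receptor, with 20.6 normalized counts on average in untreated wild-type and 4.69 in untreated 3KR MEFs (log2 fold change -2.15, edgeR adjusted p = 0.00133), though the lowest sample of untreated wild-type, 7.10, was next to the highest of 3KR, 7.05. Erbb2, the partner of ERBB3, had 0.12 (edgeR adjusted p = 0.00835). Nrg1, a ligand of ERBB3, was not called between genotypes without treatment (-0.14) and rose with NCS by 0.59 and 0.55. Errfi1 was the most abundant of that list, at 51.3 to 101 RPKM.

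Relatives of the other genes did not share 1 direction. Of 11 cadherins tested, 5 were higher and 4 lower in each treatment. Cdh6 had a log2 fold change of -1.66 and Cdh10 of -1.40, whereas Cdh3 had 1.48, and Cdh15 rose from 3.37 to 90.0 normalized counts on average in untreated MEFs. Cdh11, the cadherin of mesenchymal cells, was the most abundant at 73.6 to 96.0 RPKM. Among 8 tested intermediate filament genes, 5 were lower and 1 higher, with -3.01 for Nefm, -2.62 for Nefl, -1.53 for Des and 1.28 for Synm. Vim, at 722 to 894 RPKM, was the most abundant of them. Of 11 S100 and fatty acid binding protein genes, 5 were lower and 3 higher, with -1.05 for S100a1, -1.06 for Fabp3, 1.04 for S100a4 and 1.21 for Fabp4. S100a4 was the most abundant, at 389 to 1064 RPKM.

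Markers of other cell types were read beside these results, and their part in them was not tested. Of the 8 melanocyte markers, 5 were tested, Dct had 0 reads and Tyrp1 at most 2, the list summed to 15.7 to 20.2 CPM, and Mitf was the most abundant at 1.08 to 2.12 RPKM. Ednrb had a log2 fold change of -1.41 and Kit of -1.27, while Mitf had 0.70 and Tyr -0.42. Of 12 neuron markers, 6 were tested, and Th and Rbfox3 had at most 3 reads. That list summed to 101, 102 and 89.3 CPM in untreated and 106, 101 and 98.4 CPM in NCS-treated wild-type MEFs, and to 51.4, 50.8 and 48.5 and then 53.8, 53.7 and 49.8 CPM in 3KR MEFs. Tubb3, the most abundant of it at 9.28 to 24.1 RPKM, had -0.91, Stmn2 had -1.10 and Elavl4 0.69 (edgeR adjusted p = 0.139). Isl1 had 3.08 normalized counts on average in untreated wild-type and 60.0 in untreated 3KR MEFs. Of 8 central nervous system markers, 4 were tested, Sox1 was not found by symbol, Hes5 had at most 1 read, Sox2 and Pax6 had -1.54 and -1.65, Olig1 0.33 and Slc1a3, the most abundant at up to 2.96 RPKM, 1.36. The list summed to 14.1 to 16.6 CPM in wild-type and 24.5 to 27.8 CPM in 3KR untreated MEFs, and to 15.2 to 15.8 and 17.0 to 18.5 CPM after NCS.

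Macrophage markers went in the opposite direction to the genes described here. Of 10 tested, 9 were higher in 3KR without treatment (median 1.08) and 8 after NCS. Csf1r, Cd14, Itgam and Adgre1 had log2 fold changes of 1.30, 1.31, 1.34 and 1.58. The list summed to 115, 112 and 99.6 CPM in untreated and 121, 125 and 108 CPM in NCS-treated wild-type MEFs, against 203, 203 and 204 and then 188, 189 and 185 CPM in 3KR MEFs. Lyz2 was its most abundant gene, at 43.4 to 79.9 RPKM, and no marker was at 0. Mural cell markers, which pericytes and smooth muscle share with cultured fibroblasts, were lower for 5 of 6 genes, with -0.97 for Mcam, -0.59 for Cspg4, -0.25 for Acta2 and 0.61 for Myh11. They summed to 7641, 7596 and 7347 CPM in untreated wild-type and 5971, 5953 and 5973 CPM in untreated 3KR MEFs, and Acta2 was the most abundant at 1611 to 1987 RPKM. Of 8 skeletal muscle markers 3 were tested, and Ckm had 0 reads and Myf5 at most 1. Des, which is also in the intermediate filament list and was the most abundant of these, was lower, as was Actn2 (-1.19, edgeR adjusted p = 0.0478, or 0.0507 with library totals), and Myh3 had -0.62 (edgeR adjusted p = 0.241). Their sums were 119 to 125 CPM in wild-type and 40.3 to 43.3 CPM in 3KR samples, and nearly all of this was Des. In untreated wild-type and 3KR MEFs, Des had 4583 and 1589 normalized counts on average, against 18.0 and 11.7 for Myh3. Endothelial markers, 4 of 6 tested, summed to at most 6.76 CPM and were led by Kdr (0.07). Emcn had -2.44, Cdh5 0.26, Tek 0.15 and Tie1 at most 1 read. Epithelial markers, 3 of 6 tested, summed to at most 3.30 CPM, were led by Krt18 (-0.60), and had at most 3 reads of Krt5. In untreated wild-type and 3KR MEFs, Cdh1 had 8.73 and 44.8 and Krt8 2.80 and 15.3 normalized counts on average.

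Among 12637 tested genes with a mean log2 CPM of at least 0, the 8 genes of the list left out, the 8 whose log2 CPM followed that of Sox10 most closely over the 12 samples were Cadm4, Sulf1, Col4a1, Col4a2, Col14a1, Nefm, Scn7a and Crmp1. Their Pearson correlations with Sox10 were 0.999 for Cadm4, 0.998 for Sulf1, Col4a1, Col4a2 and Col14a1, and 0.997 for Nefm, Scn7a and Crmp1. Since the 12 samples fall into 2 genotypes, such a correlation mostly follows the step between them and is a description only. Crmp1 had the largest genotype difference of these genes, -3.46 untreated, and Sulf1 the smallest, -0.77. Among the 8 genes of the list, the deviations from the group means gave 28 pairwise correlations over 12 samples, from -0.686 for Fabp7 with Nes to 0.822 for Cdh19 with Fabp7, with a median of -0.271. Of the 28, 9 were above 0. In wild-type MEFs the deviations include replicate 3, in which Nes was high and Fabp7 low in both treatments.

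Promoter sequences of RefSeq (build GRCm38.p6, 250 bases before to 50 after the gene start) were given for 5 of the 8 genes, Ngfr, Foxd3, S100b, Fabp7 and Nes, and not for Sox10, Erbb3 and Cdh19. They were searched on both strands for the E2F words TTTCCCGC, TTTCGCGC, TTTGCCGC and TTTGGCGC, since E2F1 carries the mutation, and for the SOX words ACAAAG and ACAATG. Of all 32851 promoters of this length, 2.26% held an E2F word and 28.6% a SOX word. None of the 5 held either, which says only that these letters are not in this window. The promoters of Ngfr and Foxd3, which were lower in 3KR MEFs, and of S100b, which was not called, are shown 5′ to 3′ to let them be compared. They have no capitals because no word was found.
Ngfr, chr11:95587649-95587948, minus strand: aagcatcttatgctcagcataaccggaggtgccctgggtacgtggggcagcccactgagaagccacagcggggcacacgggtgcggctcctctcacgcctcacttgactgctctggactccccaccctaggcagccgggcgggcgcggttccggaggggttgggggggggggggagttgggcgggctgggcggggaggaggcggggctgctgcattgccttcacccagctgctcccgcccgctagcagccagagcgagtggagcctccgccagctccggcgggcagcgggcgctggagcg
Foxd3, chr4:99656049-99656348, plus strand: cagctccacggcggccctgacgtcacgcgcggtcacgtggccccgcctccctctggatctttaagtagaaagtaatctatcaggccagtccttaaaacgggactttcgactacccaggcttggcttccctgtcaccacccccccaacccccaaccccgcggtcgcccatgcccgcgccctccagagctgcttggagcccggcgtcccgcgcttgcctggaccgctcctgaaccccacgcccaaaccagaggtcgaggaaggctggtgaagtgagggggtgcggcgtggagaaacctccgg
S100b, chr10:76253586-76253885, plus strand: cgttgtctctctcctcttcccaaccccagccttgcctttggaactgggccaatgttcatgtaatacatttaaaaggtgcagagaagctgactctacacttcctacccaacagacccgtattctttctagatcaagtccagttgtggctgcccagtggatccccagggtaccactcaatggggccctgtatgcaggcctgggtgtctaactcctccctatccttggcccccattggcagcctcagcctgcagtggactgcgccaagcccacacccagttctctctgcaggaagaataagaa
The share of G and C was 71.7% for Ngfr, 65.7% for Foxd3 and 53.7% for S100b.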

How the data were processed

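Primary MEFs of 2 genotypes, untreated or given NCS, were profiled in 12 samples. The authors deposited raw read counts per Ensembl gene, 1 file per sample, from stranded libraries (TrueSeq Stranded mRNA kit). The submitters' processing notes name TopHat, HTSeq, DESeq and mm9. Whether counting used the strand, and how reads mapping to several places were treated, is not given in the sources used here. Symbols, exon lengths and GRCm38 positions came from GENCODE release M21, which holds 32938 of the identifiers and lacks 5053.

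Counts were filtered with filterByExpr, scaled by TMM and compared in edgeR 4.0.16 under R 4.3.3 by its quasi-likelihood F test (all 12 samples, 1 coefficient per group, two-sided, Benjamini-Hochberg over 15327 genes, threshold 0.05). The common coefficient of variation was 3.95%. Intervals are 95% intervals from the same fit. Normalized counts use the size factors of DESeq2 1.42.0. RPKM and CPM use TMM-scaled library sizes. Correlations used log2 CPM with a prior count of 2. All steps were tested on simulated data. The alternatives were other scalings, filters, samples, the DESeq2 Wald test and the replicate block.

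The genes and lists were chosen with earlier results of these data known. The text names all 8 genes. From each other list it names genes among the 4 tested ones with the lowest p in untreated MEFs, the most abundant gene per length and markers at or under 3 counts. It adds the 8 genes most like Sox10 and the check genes. Others, namely Erbb2, Erbb4, Nrg1, Ncam1, Zeb2 and Mag, were named after their values were seen. Of the check genes, Actb had 105308 to 161785 and Gapdh 1235 to 1640 raw counts. Whether reads mapping to several places were left out of the Gapdh counts is not given, and their part in this gap was not tested.

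Same-numbered untreated and NCS-treated samples were taken as paired where the deviations from group means correlated at over 0.1 for each number. This held in wild-type MEFs (0.141, 0.136 and 0.325 over 11758 genes) and in no other pairing of groups. A shift shared by the wild-type samples numbered 3 could by itself raise all these correlations. The rule therefore does not show pairing of the other numbers.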

Additional observations from a re-analysis of the deposited data

Results flagged for a closer look

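In the edgeR fit without pairing, none of the 8 genes passed the test of a difference in NCS response between the genotypes. Nes passed with the replicate block (0.15, edgeR adjusted p = 0.000496), and Nes and Erbb3 passed without both wild-type samples numbered 3 (edgeR adjusted p = 2.67e-05 and 0.00896). Of 85 other tested genes picked by the naming rule, 11 (12.9%) passed in the fit without pairing, against 3.73% of all tested genes. They were picked for a low p between genotypes, a high level, likeness to Sox10 or as checks, and are no random sample. Each is given as the response of 3KR minus that of wild-type MEFs on the log2 scale. In the Schwann lineage list, Pmp22 had -0.19 (edgeR adjusted p = 0.0324). Ncam1 of the same list, outside the naming rule and chosen after its values were seen, had 0.26 (edgeR adjusted p = 0.000667), with a response of -0.20 in wild-type and 0.06 in 3KR MEFs. Ednrb had -0.63 (edgeR adjusted p = 0.0455), with a response of 0.40 in wild-type and -0.23 in 3KR MEFs. Slc1a3 had -0.62 (edgeR adjusted p = 0.000439), with 0.01 and -0.61. Of the fibroblast markers, Pdgfra had -0.16, Lum -0.37, Dcn -0.28 and Fn1 -0.14. Acta2 had 0.10 and Actb 0.12, and for Actb the edgeR adjusted p was 0.0437, or 0.0506 with the size factors of DESeq2. Cdkn1a had 0.16, with responses of 1.18 and 1.34. Col14a1, one of the genes most like Sox10, had -0.31, with 0.13 and -0.18. No test of single outlying values was run per gene. Replicate 3 of the wild-type groups stood apart over all genes, by mean chi-squares of 7.59 to 9.40.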

How the results depend on the processing

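The count of 7 of the 8 genes lower in 3KR MEFs was the same in each treatment under all 20 alternatives, including the replicate block (7 and 7) and leaving out both wild-type samples numbered 3. In the latter the untreated log2 fold changes were -2.36 for Sox10, -2.13 for Ngfr, -2.39 for Foxd3 and -1.44 for Nes. Leaving out 1 sample at a time moved Sox10 between -2.41 and -2.37 without treatment. The count of genes called for the difference of the NCS responses, 572, became 1379 with the replicate block, 1842 without both wild-type samples numbered 3, and 345 to 1159 with 1 sample left out, where leaving out wild-type untreated replicate 3 gave the highest. The cause was not tested.

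Signs turned only for values near 0. In untreated MEFs S100b lay between -0.15 and 0.06 with 1 sample left out. For NCS in wild-type MEFs, Erbb3 lay between -0.07 and 0.04, or at 0.06 without both wild-type samples numbered 3. Foxd3 lay between -0.11 and 0.02, and Cdh19 between -0.04 and 0.03, or at -0.05 with library totals, -0.01 with a minimum of 10 counts per sample, -0.01 in a fit of the 6 samples concerned and -0.01 without both samples numbered 3. For NCS in 3KR MEFs, Cdh19 lay between -0.06 and 0.02, and Fabp7 between -0.03 and 0.08, or at -0.01 with library totals. In the difference of responses, S100b lay between -0.19 and 0.03 and Cdh19 between -0.06 and 0.03, or at 0.01 with that minimum. Fabp7 passed for NCS in wild-type MEFs without replicate 3 of the untreated (-0.22) or replicate 1 of the treated samples (-0.25). At these depths, 3 reads are 0.0663 to 0.0904 CPM, which covers counting error only.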
